A study of Mus musculus with 6 samples.

Results

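The HoxA homeobox genes Hoxa2, Hoxa4, Hoxa5, Hoxa6 and Hoxa10 were followed in reduced representation bisulfite sequencing (RRBS) data of mouse bone marrow cells. RRBS sequences fragments cut by the enzyme MspI after bisulfite treatment, and reads which cytosines are methylated. The unit was a 500 bp window of the genome, placed every 250 bp, so that neighbouring windows share cytosines. The windows were selected by their listing: a window entered if one of the 3 lists of changed windows gave one of these genes as nearest. This gave 11 distinct windows of 2135 in all, with 14 entries in the lists. Since the measured differences chose the windows, their values are given as a description, without a test.

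Bone marrow cells of C57BL6 mice that had been immortalised with HoxA9 were studied in 3 groups of 2 libraries. The IDH1wt cells carried wild-type IDH1 on the vector pSF91-IDH1wt-IRES-EGFP, and the IDH1mut cells carried mutant IDH1 on pSF91-IDH1mut-IRES-GFP, named R132C in the lists. The R-2HG cells carried an empty vector, and their irradiated recipients received a daily dose of 1 mg R-2HG over 4 weeks. GFP-positive cells of every group were sorted from recipient marrow 4 weeks after transplantation or treatment. All 3 groups thus share the HoxA9 immortalisation, while R-2HG cells differ from IDH1wt cells in both vector and agent. Separate mice are not named for the 2 libraries of a group, nor do the labels give how many cell pools were transduced, or whether marrow was pooled. No empty-vector group without R-2HG was analysed here.

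Hox genes encode homeodomain transcription factors and lie in clusters in which the order of the genes follows the order in which they are active along the body axis. In blood, the HoxA genes are active in stem and progenitor cells and are turned down as myeloid cells mature, and high HOXA9 and HOXA10 are a known feature of several acute leukaemias. Mutant IDH1 makes R-2-hydroxyglutarate (R-2HG), which can inhibit the TET enzymes that oxidise 5-methylcytosine. Methylation of CpG-rich start sites is often found at silenced genes, but expression was not measured here.

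The start sites of Hoxa5 and Hoxa6 were the only ones of the 5 genes that a listed window overlapped. The 250 bases upstream of each are shown because they lie wholly or partly in those windows. They are from RefSeq (GRCm38.p6, minus strand, chr6:52204588-52204837 for Hoxa5 and chr6:52208673-52208922 for Hoxa6), written 5′ to 3′ up to the start site. Capitals mark each CG dinucleotide, the site that methylation is read at, and an MspI site reads cCGg.
Hoxa5: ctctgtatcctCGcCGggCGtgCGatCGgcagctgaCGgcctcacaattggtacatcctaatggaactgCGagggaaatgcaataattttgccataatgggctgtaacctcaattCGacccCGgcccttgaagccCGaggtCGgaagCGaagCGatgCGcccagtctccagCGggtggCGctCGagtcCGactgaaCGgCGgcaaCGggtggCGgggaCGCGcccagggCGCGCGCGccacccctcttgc
Hoxa6: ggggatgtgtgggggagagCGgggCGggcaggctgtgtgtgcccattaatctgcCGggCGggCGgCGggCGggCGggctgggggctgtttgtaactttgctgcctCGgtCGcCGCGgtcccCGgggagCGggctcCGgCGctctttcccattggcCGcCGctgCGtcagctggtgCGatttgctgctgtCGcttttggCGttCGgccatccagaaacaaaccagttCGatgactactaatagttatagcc

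The Hoxa5 stretch held 28 CG dinucleotides and 2 MspI sites (CCGG), and the Hoxa6 stretch 24 and 3. Both motifs read the same on either strand, and each CCGG contains a CG. Among 32851 RefSeq stretches of the same length, the median was 6 CG, and 47.1% held CCGG. Thus 92.4% of promoters had fewer CG than Hoxa5 and 88.0% fewer than Hoxa6. The listed windows reached 163 bp upstream of the Hoxa5 start site, a stretch with 21 CG and 1 CCGG. They reached 628 bp upstream of the Hoxa6 start site and so cover all 250 bases. These lengths assume the same start site in both builds. The Hoxa5 to Hoxa4 distance, 12884 bp, was equal in mm9 and GRCm38.p6, while the Hoxa6 start site lay 4035 bp from that of Hoxa5 in mm9 and 4085 bp in GRCm38.p6.

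The other HoxA start sites differed widely in CG content. Hoxa2 had 6 CG and 1 CCGG upstream. Hoxa10 has 2 start sites in the table, with 20 CG and 7 CG. The one with 20 CG lies 30352 bp from the Hoxa5 start site, the same distance as the Hoxa10 start site that the lists used. Hoxa9 had 3 CG and 1 CCGG, and Hoxa7 had 7 CG and no CCGG. Hoxa3 had 18 CG and Hoxa11 had 13. Hoxa11os and Hoxa13 had 35 CG each, more than Hoxa5 or Hoxa6, so a high CG content is not particular to those genes. Hoxa4 was matched to no promoter entry.

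**Figure D1:**
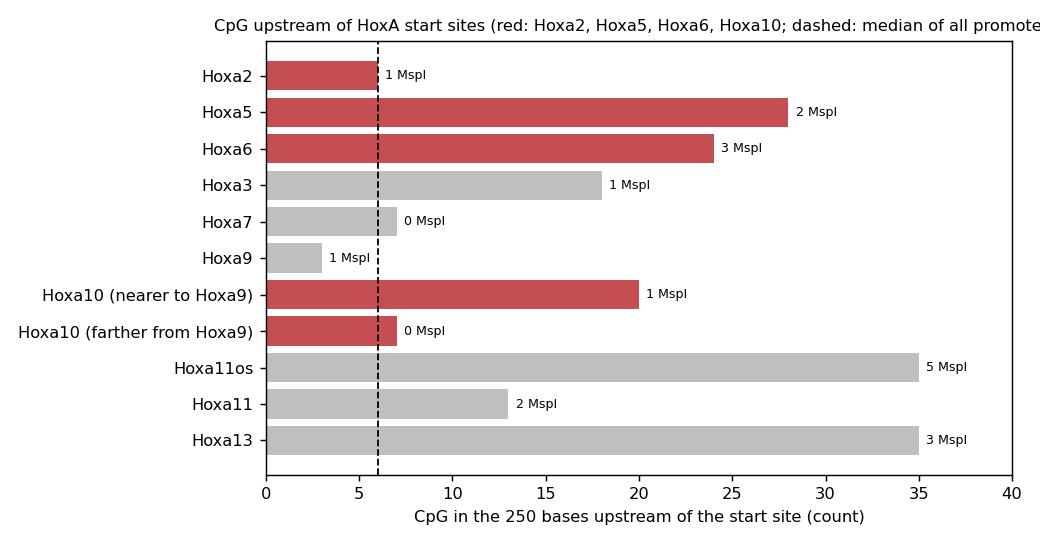
Number of CG dinucleotides in the 250 bases upstream of each HoxA start site in the RefSeq promoter table, with the number of MspI sites beside each bar; red bars are Hoxa2, Hoxa5, Hoxa6 and the 2 start sites of Hoxa10, and the dashed line is the median of all promoters, 6. Hoxa5 with 28 and Hoxa6 with 24 stand well above the median, Hoxa11os and Hoxa13 with 35 each stand higher still, and Hoxa9 with 3 stands below it.

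Differences are in percentage points of methylation, the first-named group minus the second. They are the authors' values, without a group mean, a value per library or a read depth. The direction rests on a reading of signs. The 3 lists are compatible only if the one of IDH1wt with R-2HG runs opposite to the other 2, and the reading that is used takes IDH1mut minus IDH1wt as the direction of the first. If the whole set ran the other way, each gain named here would be a loss, while statements that 2 groups lay on the same side of IDH1wt would hold.

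In IDH1mut against IDH1wt, 8 windows at Hoxa2, Hoxa4 and Hoxa5 were listed, and all 8 were gains. Of all 1493 windows of that list, 69.3% were gains. For R-2HG against IDH1wt, 5 windows at Hoxa2, Hoxa5 and Hoxa6 were listed, again all gains, where 68.0% of the 750 listed windows were gains. The direct comparison of R-2HG with IDH1mut listed 1 window, at Hoxa10, a gain, where 35.5% of 603 windows were gains. The lists hold only windows past 25 points and a q of 0.01, so the share of tested windows that was listed is unknown. The median of the 8 IDH1mut differences was 31.7 points and that of the 5 R-2HG differences 35.2 points, beside medians of 30.6 and 29.4 points over all gains of the same lists. The first 2 medians are over partly different windows and do not compare R-2HG with IDH1mut. At the 3 windows in both lists, R-2HG lay at -11.3, 7.19 and -3.99 points against IDH1mut by subtraction. All 14 entries had a p-value and a q-value of 0 as deposited, as had 70.9%, 68.7% and 81.9% of all windows by q.

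**Figure D2:**
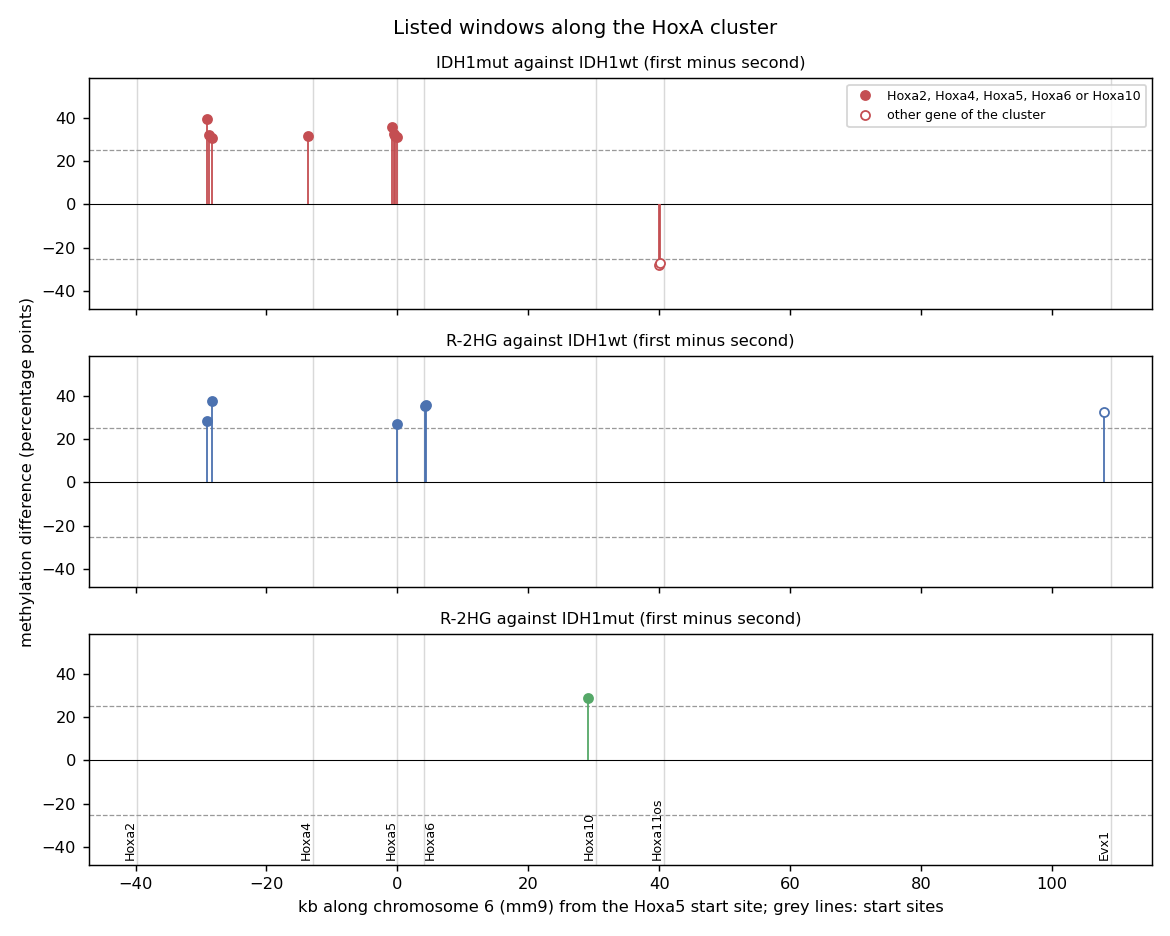
Methylation difference in percentage points against the position along chromosome 6 in kb from the Hoxa5 start site (mm9), 1 panel per comparison; filled points are windows of Hoxa2, Hoxa4, Hoxa5, Hoxa6 and Hoxa10, open points windows of other genes of the cluster, grey lines start sites and dashed lines 25 points. The listed IDH1mut gains end at Hoxa5, the listed R-2HG gains include Hoxa6, and 2 IDH1mut windows at Hoxa11os are below 0. Unlisted differences are not drawn, so the panels do not show where a gain stops.

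Hoxa5 encodes a factor that acts in lung and axial skeleton development and is studied as a growth-restraining gene in tumours. Its 4 windows formed 1 unbroken stretch of 1250 bp, from 163 bp upstream to 1086 bp downstream of the start site (mm9, chromosome 6, 52153501 to 52154750). In IDH1mut against IDH1wt the window over the start site gained 30.8 points according to the authors' deposited table. The next 3 windows, at 87, 337 and 587 bp downstream, gained 31.5, 32.3 and 35.5 points according to the authors' deposited table. The 4 differences spanned 4.66 points and were higher the farther the window lay into the gene, but neighbouring windows overlap by 250 bp. In R-2HG against IDH1wt, the window over the start site was listed and the other 3 were not. It gained 26.8 points according to the authors' deposited table, the smallest of the 14 entries and so the one nearest to the limit of 25 points. Subtraction puts R-2HG at -3.99 points against IDH1mut in this window.

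Hoxa6 lies next to Hoxa5 on the same strand. It is a less studied HoxA gene that is also active in blood progenitors. Its 2 windows covered 750 bp from 628 bp upstream to 121 bp downstream of the start site (mm9, chromosome 6, 52158501 to 52159250). In R-2HG against IDH1wt they gained 35.2 points over the start site and 35.5 points at 129 bp upstream according to the authors' deposited table. The 2 values differed by 0.30 points, but the windows share their inner 250 bp. Neither window was listed for IDH1mut.

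Hoxa2 patterns the hindbrain and the second pharyngeal arch. Its 3 windows lay 10.4 to 11.7 kb upstream of its start site, so the symbol says which start site is nearest and not that the windows belong to the gene (mm9, chromosome 6, 52125251 to 52126500). The windows lie between the start sites of Hoxa2 and Hoxa4. RefSeq places the end of Hoxa3 between these 2 genes and its start site beyond Hoxa6, so that Hoxa3 as annotated spans Hoxa4, Hoxa5 and Hoxa6. For IDH1mut the differences were 39.4 points at 10422 bp, 31.8 points at 10672 bp and 30.4 points at 11172 bp according to the authors' deposited table. For R-2HG they were 28.1 points at 10422 bp and 37.6 points at 11172 bp according to the authors' deposited table, and the window between was not listed. The first was thus the largest of the 8 IDH1mut entries and the last the largest of the 5 R-2HG entries. Between the 2 windows listed for both groups the order was reversed. IDH1mut was higher in the one nearer to Hoxa2, and R-2HG in the one farther from it. The middle window has no R-2HG value, so no trend over the 3 windows can be read for R-2HG. By subtraction R-2HG lay at -11.3 points against IDH1mut in the first window and at 7.19 points in the last. Both values are under the 25 points of the lists, and without values per library no test of them could be made.

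Hoxa4 encodes a factor of the anterior part of the cluster that is also found in blood stem cells. It had 1 window, from 453 to 952 bp downstream of its start site (mm9, chromosome 6, 52140751 to 52141250). This window gained 31.4 points in IDH1mut against IDH1wt according to the authors' deposited table and was not listed for R-2HG.

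Hoxa10, which promotes the expansion of myeloid progenitors, lies on the other side of Hoxa9 from the 4 genes above. Its single window lay 939 to 1438 bp downstream of the start site of NM_008263 (mm9, chromosome 6, 52183501 to 52184000). R-2HG was higher than IDH1mut by 28.6 points according to the authors' deposited table. It was listed in neither comparison with IDH1wt, so the list does not say which group moved.

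For 8 of the 11 windows 1 list gave a value, for 3 windows 2 lists did, and for none all 3. The unlisted differences can be bounded, since the 3 differences of 3 groups add up. The bounds hold if the window was covered in all 3 comparisons and was unlisted because its difference stayed under 25 points. Under that condition R-2HG lay above IDH1wt by 10.5 to 25 points in the Hoxa5 window at 587 bp, by 7.31 to 25 points at 337 bp and by 6.52 to 25 points at 87 bp. The same bounds were 6.37 to 25 points at Hoxa4 and 6.82 to 25 points in the middle Hoxa2 window. IDH1mut lay above IDH1wt by 10.2 to 25 points in the Hoxa6 window over the start site and by 10.5 to 25 points in the upstream one. Under this condition, R-2HG and IDH1mut were therefore on the same side of IDH1wt at all 10 windows of Hoxa2, Hoxa4, Hoxa5 and Hoxa6. The listing alone fixes this outcome. Any window past 25 points against IDH1wt and under 25 points between R-2HG and IDH1mut gives it, at whatever gene. It is thus no separate result about the HoxA genes. Both comparisons use the same IDH1wt libraries, so their shared side is no independent repeat.

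Hoxa10 was the exception. Under the same condition R-2HG lay 3.62 to 25 points above IDH1wt there, and IDH1mut between -25 and -3.62 points, on opposite sides. Any window listed in that comparison alone gives opposite sides, so this restates the listing and is no trait of Hoxa10. Which of coverage, q and size kept a window off a list was not tested.

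**Figure D3:**
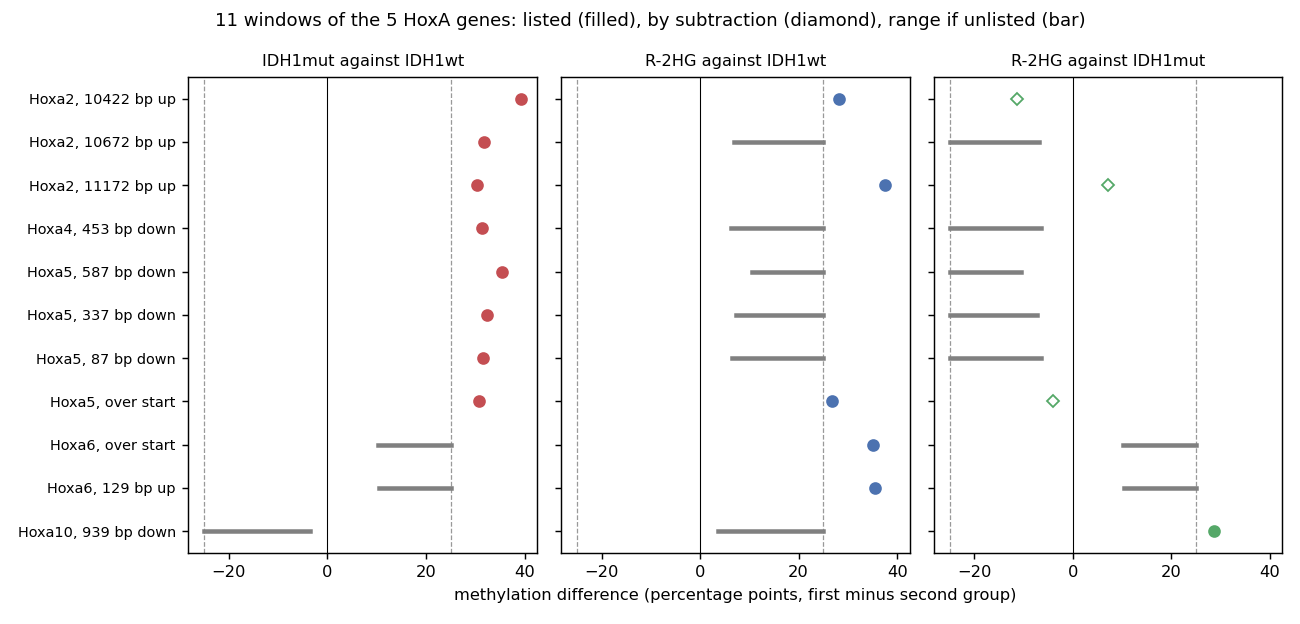
Methylation difference in percentage points for the 11 windows of the 5 genes, in order along chromosome 6, 1 panel per comparison; filled points are listed values, diamonds values by subtraction, grey bars the range open to an unlisted difference if it was covered and under 25 points, and dashed lines 25 points. In the first 2 panels every point and bar lies above 0 except the IDH1mut bar of Hoxa10, from -25 to -3.62 points. The side of each of these bars is fixed by which list held the window.

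Within the lists, the HoxA windows ranked low to high among the gains. The largest IDH1mut difference, 39.4 points at Hoxa2, was above 81.8% of the gains of its list, and the smallest, 30.4 points at Hoxa2, above 48.9%. For R-2HG the values ran from 26.8 points at Hoxa5, above 24.9% of the gains, to 37.6 points at Hoxa2, above 83.9%, and the other Hoxa2 window, with 28.1 points, was above 37.8%. The 2 Hoxa6 windows were above 75.5% and 77.1% of the gains of the R-2HG list. The Hoxa10 window was above 46.7% of the gains of R-2HG over IDH1mut.

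**Figure D4:**
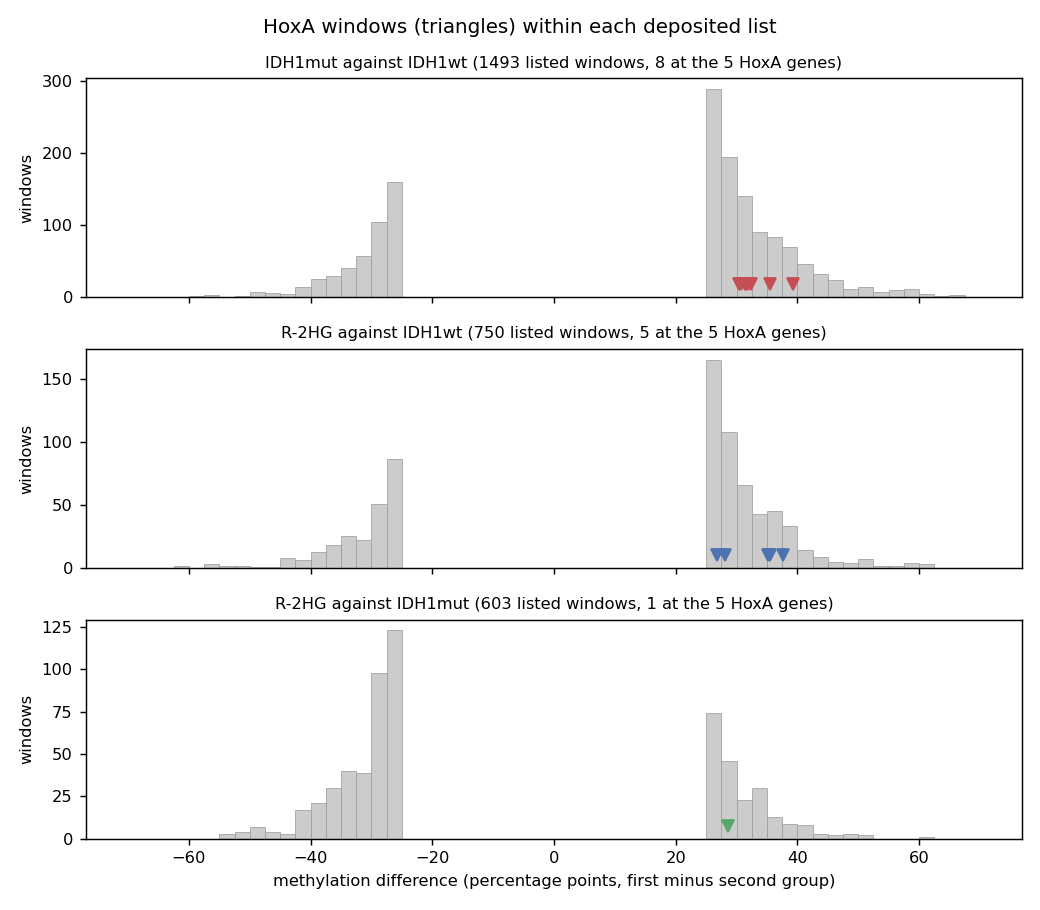
Number of windows (y) by methylation difference in percentage points (x) for all listed windows of each comparison, with the windows of the 5 HoxA genes as triangles. All triangles lie right of 25 points, from 30.4 to 39.4 for IDH1mut and from 26.8 to 37.6 for R-2HG against IDH1wt, and at 28.6 for R-2HG against IDH1mut.

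No window was listed in any comparison in the 24.3 kb between the Hoxa6 and Hoxa10 windows, where the RefSeq order puts the start sites of Hoxa3, Hoxa7, Hoxa9 and Mir196b. Hoxa9, the gene used to immortalise the cells, and Hoxa3, Hoxa7, Hoxa11 and Hoxa13 were the nearest gene of no listed window. Since the lists hold changed windows only, this does not show that methylation there was equal, or that it was read.

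Beyond Hoxa10, Hoxa11os and Evx1 had listed windows. Hoxa11os, the noncoding RNA on the strand opposite to Hoxa11, had 2 losses of -27.6 and -27.1 points according to the authors' deposited table, at 492 and 242 bp upstream (chromosome 6, 52194251 to 52195000). Thus for IDH1mut all 8 listed windows from Hoxa2 to Hoxa5 were gains, and the 2 at Hoxa11os, beyond Hoxa10, were losses. Evx1, a homeobox gene beyond Hoxa13, had 1 gain of 32.5 points for R-2HG according to the authors' deposited table. The authors' window numbers ran without a break over the 10 IDH1mut windows from Hoxa2 to Hoxa11os and the 6 R-2HG windows from Hoxa2 to Evx1, so no listed window is absent between them.

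Of the other Hox clusters, HoxB windows were gains, as those of the 5 HoxA genes were, and HoxC windows were losses. HoxB had 5 windows for IDH1mut and 6 for R-2HG against IDH1wt, all gains, with medians of 31.5 and 27.6 points. HoxC had 10 and 6, all losses, with medians of -46.5 and -38.6 points. No HoxD gene of 9 was listed. These are counts of overlapping windows at 2 or fewer genes each, and the difference between clusters was not tested.

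Genes that act with or on the HoxA cluster were looked up as well. The share of all genes that was listed was not worked out, so their counts are not read as few or many. Of 15 partners of HOXA9, Meis1 and Meis2 were listed for IDH1mut, none for R-2HG against IDH1wt and Meis1 for R-2HG against IDH1mut. Meis2, a homeodomain cofactor, gained 28.3 points at 48608 bp according to the authors' deposited table. Meis1, the cofactor that speeds HOXA9-driven leukaemia in mice, had 3 gains and 1 loss, from -42.4 to 44.6 points according to the authors' deposited table. These windows lay 10973 to 143473 bp from its start site, so the symbol says only which start site is nearest, as for Meis2. Against IDH1mut, R-2HG was lower in 2 Meis1 windows, by -25.9 and -25.1 points according to the authors' deposited table. Those lay 143223 and 143473 bp from the start site. Of 30 chromatin regulators of Hox genes, 3 were listed for IDH1mut and 2 for R-2HG against IDH1wt, all gains. Over all windows of these lists, 69.3% and 68.0% were gains. The Polycomb subunit gene Cbx8 gained 55.6 and 55.8 points in IDH1mut and 36.5 and 36.6 points in R-2HG at 3228 and 3478 bp downstream according to the authors' deposited table. Rnf2, the ubiquitin ligase of the same complex, gained 25.2 points in IDH1mut at -17799 bp according to the authors' deposited table. Bmi1, a further subunit, gained in 3 windows in IDH1mut, by 41.8 to 53.7 points at 3608 to 4108 bp, according to the authors' deposited table. Kdm6b, which removes the Polycomb mark, gained in 1 in R-2HG, by 25.3 points at -7825 bp according to the authors' deposited table. The Rnf2 and Kdm6b values are of single windows and lie near the limit of 25 points. At Cbx8, Rnf2, Bmi1 and Kdm6b too, the symbol says only which start site is nearest. In R-2HG against IDH1mut, Bmi1 was the single chromatin regulator listed, with 3 windows from -44.8 to -31.4 points according to the authors' deposited table. Of 9 genes of DNA methylation, Dnmt3a was listed, in 2 different windows that overlap. The one over the start site gained 25.8 points in IDH1mut according to the authors' deposited table. The one 9 bp downstream differed by -35.8 points for R-2HG against IDH1mut according to the authors' deposited table. Neither was listed in another comparison.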

How the data were processed

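DNA methylation was measured by RRBS in 6 libraries in 3 groups of 2. MspI fragments were size-selected and bisulfite converted, per the labels' protocols, and each library had its own sequencing lane. Trim Galore, BSMAP, methylKit 0.9.1 and mm9 stand in the submitters' processing notes; their settings and the statistical test: not given in the sources used here. Deposited were tables of 3 comparisons. Per the file headers, each row gives a p-value, a q-value and a methylation difference, which is the authors' signed score in percentage points, and the nearest start site. Depth and values per library are unknown, so no interval, error or test between groups was possible, and p-values of the authors may cover technical spread only.

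Windows were counted once per chromosome and start (Python 3.11.15, pandas 2.3.3). The members and lists were chosen with earlier results of these data known. Signs were ordered so that the 3 differences add up: the order used left a residual of 0 at 3 windows in all lists and 0 of 705 windows in 2 lists whose remaining difference passed 25 points, against 320, 457 and 633 under the other orders. The arithmetic of this step and of the bounds was checked on simulated data. There every window was covered and listed by size alone, so the condition behind the bounds was not tested. Start sites in mm9 were worked out from the deposited distances. Window numbers absent from the lists were 5, 2 and 1. All windows of the 5 genes and the listed genes of the lists are named, but some listed windows are not reported here. Alternatives were 30 points, q below 0.001, all windows from Hoxa2 to Hoxa11os, joined windows and promoter windows (2000 bp upstream to 500 bp downstream).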

Additional observations from a re-analysis of the deposited data

How the results depend on the processing

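With q below 0.001 in place of the deposited limit, every count of HoxA windows and the largest difference of each comparison were unchanged. With at least 30 points, the count for IDH1mut stayed at 8, that for R-2HG against IDH1wt was 3 in place of 5, and that for R-2HG against IDH1mut was 0 in place of 1. In promoter windows the 3 counts were 4, 3 and 0, since this leaves out the Hoxa2 windows, the Hoxa5 window at 587 bp and the Hoxa10 window. When overlapping or touching windows were joined, the 8 IDH1mut windows became 3, at Hoxa2, Hoxa4 and Hoxa5, and the 5 R-2HG windows 4. Taking all windows of the 69.8 kb from Hoxa2 to Hoxa11os gave 10, 5 and 1 windows, with the largest differences unchanged. No paired analysis was possible because the tables hold no value per library, and for the same reason no library could be left out. Read depth limits each value in an unknown way.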

Other observations

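Hox genes with the same number in different clusters are paralogues, and several pairs were listed together. In number 4, Hoxa4 gained 31.4 points and Hoxb4 28.8 and 31.5 points in IDH1mut against IDH1wt by the authors' deposited table. In number 5, Hoxb5 gained 26.5 points in R-2HG and Hoxa5 26.8 points by the authors' deposited table. Hoxc5, the third of this number, had -30.4 and -32.5 points in IDH1mut, where Hoxa5 had gains, by the authors' deposited table. The Hoxc5 windows lay at -1439 and -1689 bp and directly adjoined the Hoxc6 windows listed for IDH1mut. The Hoxc5 losses are thus not separate from those at Hoxc6. The Hoxb4 windows lay at 1422 and 1672 bp and the Hoxb5 window at 1427 bp, so none of these overlapped its nearest start site.

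In number 6, Hoxa6 and Hoxc6 had opposite signs in R-2HG against IDH1wt. Hoxa6 had 35.2 and 35.5 points and Hoxc6 6 windows from -45.3 to -35.5 points by the authors' deposited table, and at both genes a window overlapped the start site. In number 10, R-2HG was above IDH1mut at Hoxa10 by 28.6 points and below it at Hoxc10 by -26.2 points by the authors' deposited table. These pairs were picked out after their values were seen, and no test of them was made.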
